A study of Homo sapiens with 480 samples.

Results

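The 8 genes described here encode surface proteins with which a T cell signals that it is activated or finds its way between blood and lymphoid tissue: CD69, IL2RA and CD40LG (surface proteins induced by activation), GPR183, CXCR4, CCR7 and S1PR1 (trafficking receptors) and CD4 (a coreceptor). They were taken by name out of 20302 features in the expression table, and their rows were read in 6 groups. The groups were J-Lat A2 cells exposed for 24 h to 1 ug/mL PMA, to 1 uM SAHA or to 0.1% v/v DMSO, and Jurkat cells exposed to the same 3 agents. Jurkat cells come from a human T cell leukaemia and are counted as CD4 T cells. J-Lat A2 is 1 clone of them that carries a mostly silent construct made from HIV, in which the viral promoter drives Tat and a fluorescent protein, so a difference between the lines is a difference between 1 clone and its parent. PMA is a phorbol ester and acts through protein kinase C, SAHA (vorinostat) inhibits histone deacetylases, and DMSO is the vehicle.

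When a T cell is stimulated through its antigen receptor, or directly through protein kinase C by a phorbol ester, CD69 appears at the surface early. IL2RA and CD40LG are further surface proteins induced by activation. CD69 binds S1PR1 and takes it off the surface, which holds an activated cell in the lymph node. CCR7, CXCR4, S1PR1 and GPR183 are G protein coupled receptors that read gradients of chemokines, sphingosine 1-phosphate or oxysterols. CD4 and CXCR4 are also the proteins through which many HIV strains enter a cell.

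Single cells had been sorted into 480 wells on 5 plates, and 410 wells were kept, with a median of 514679 counts each. J-Lat A2 cells with SAHA lost most wells: the first batch kept 67 of 120, the second 68 of 81. Their shares and levels therefore describe only wells that passed the cut on total counts and genes. Other J-Lat A2 wells were nearly all kept (79 of 81 with PMA, 59 of 60 and 35 of 36 with DMSO), and no Jurkat well was left out. Counts were summed over the kept wells of each group and batch, which gave 9 sums of 4682181 to 36603816 counts, and levels are given as CPM, the counts of a gene per 1000000 counts of a sum after scaling by edgeR's TMM factors. Both batches held J-Lat A2 cells with SAHA or DMSO and Jurkat cells with DMSO (n = 2 sums). The other 3 groups came from the second batch (n = 1 sum, made up of 3 plates). Of the 13 T lineage markers examined, 13 had counts in every group, with a summed level of 14672 CPM in J-Lat A2 cells with PMA, 924 to 1053 CPM under SAHA and 4788 to 4878 CPM under DMSO. The same sum in Jurkat cells was 13608 CPM with PMA, 1282 CPM under SAHA and 5309 to 5351 CPM under DMSO. The part of these shifts in the members' changes was not tested. Of the B lineage markers CD79A alone had counts, at 90.9 CPM with PMA, 3.45 to 8.45 CPM under SAHA and 61.2 to 67.4 CPM under DMSO in J-Lat A2 cells, and at 48.1, 0.32 and 4.86 to 10.06 CPM in Jurkat cells in the same order. Myeloid, NK and erythroid markers summed to at most 12.1 CPM in any sum. A gene was called changed at an adjusted p under 0.05 in edgeR's quasi-likelihood test with group and batch as terms, adjusted over 13558 tested genes, and fold changes are log2 values with their standard error (SE). For a group with 1 sum, the p-value assumes the spread of the other groups.

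Of the 8 genes, 7 passed the filter on low counts and CD4 did not. IL2RA and CCR7 had no count in either DMSO group, so they passed through treated cells only and the counts that follow are descriptions. In J-Lat A2 cells PMA was called to raise 3 of the 7 (CD69, IL2RA and GPR183) and to lower 1 (CXCR4), against 1.98% of all tested genes called in that comparison. In Jurkat cells PMA was called to raise 2 (CD69 and IL2RA) and to lower 1 (CXCR4), against 2.27% of all genes. SAHA in J-Lat A2 cells was called to raise 3 (CD69, IL2RA and CCR7) and to lower 2 (CD40LG and GPR183), against 8.43% of all genes. SAHA in Jurkat cells was called to raise CCR7 and to lower CD40LG, against 4.22% of all genes. The median log2 change of the 7 was 6.22 with PMA and 1.36 with SAHA in J-Lat A2 cells, and 3.60 with PMA and 0.46 with SAHA in Jurkat cells. Over all tested genes these medians were 0.04 and 0.12 in J-Lat A2 cells and 0.07 and 0.11 in Jurkat cells. The comparisons of PMA and of SAHA share their DMSO sums.

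**Figure D1:**
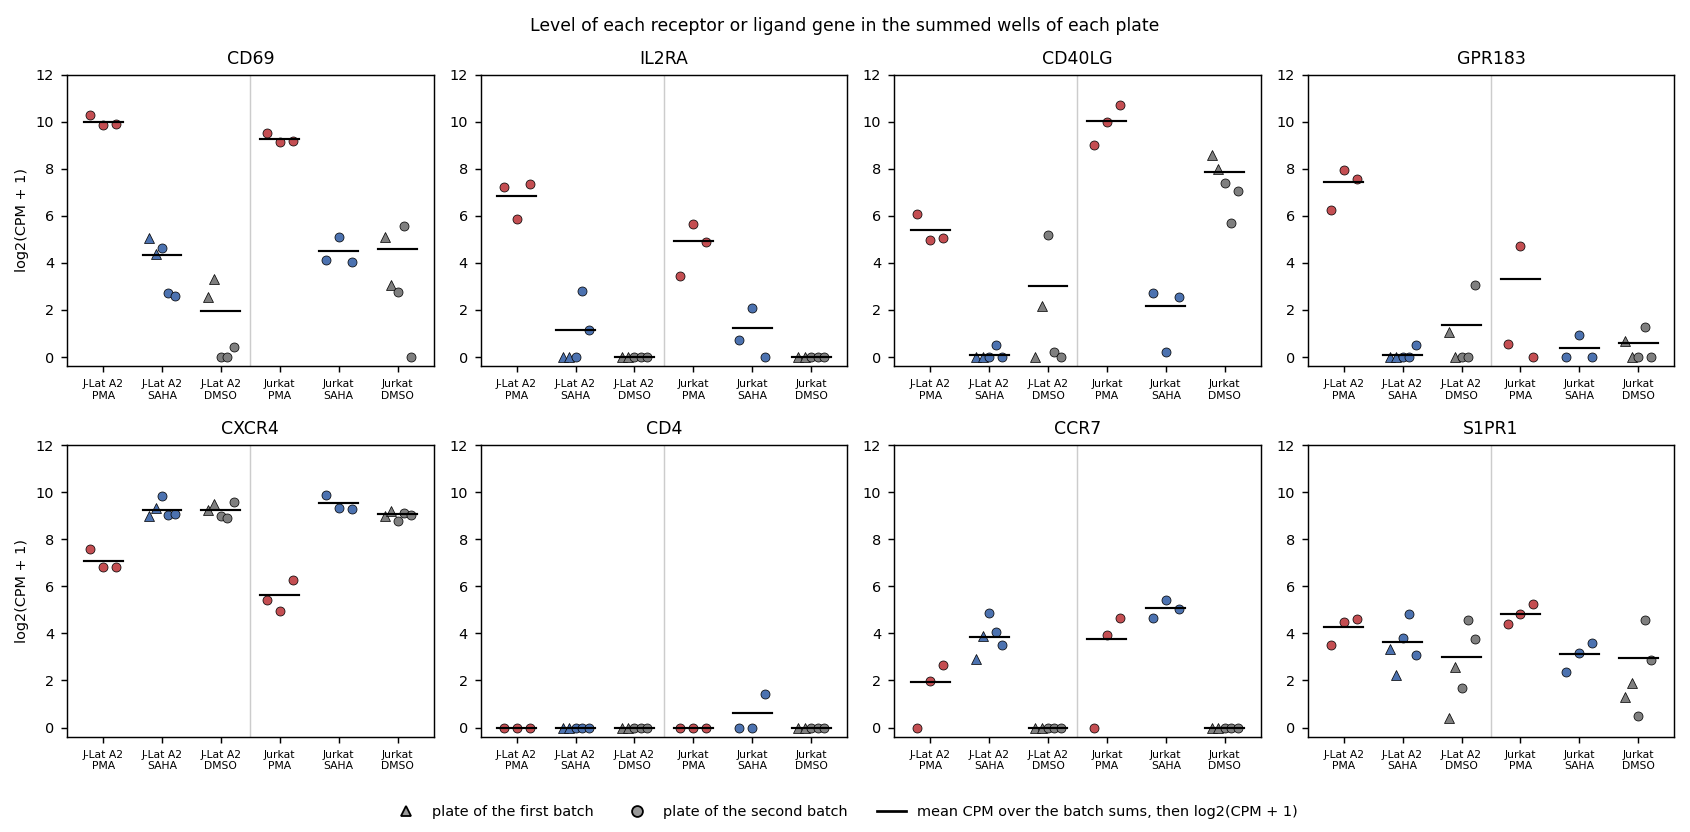
Level of each of the 8 genes in the summed wells of each plate, as log2(CPM + 1), for J-Lat A2 cells (left of the grey line) and Jurkat cells (right of it) with PMA, SAHA or DMSO. Triangles are plates of the first batch and circles plates of the second, and the line is the mean over batch sums; CD69 lies between 566 and 1248 CPM on every plate with PMA and at or under 46.3 CPM on every other plate.

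CD69, a C-type lectin that marks recently activated lymphocytes, was the gene that most wells gained with PMA. The gene is on the minus strand at chr12:9752486-9760901 (GRCh38, GENCODE release 29). Its level was 1017 CPM in J-Lat A2 cells with PMA, 27.6 and 10.99 CPM in the 2 batches with SAHA, and 5.74 and 0.10 CPM with DMSO. Jurkat cells had 618 CPM with PMA, 21.98 CPM under SAHA, and 25.98 and 20.00 CPM under DMSO. The 3 PMA plates of each line lay above every SAHA and DMSO plate of both lines. A read of CD69 was found in 72 of 79 J-Lat A2 wells with PMA (91.1%, 95% Clopper-Pearson interval 82.6 to 96.4%), in 22 of those with SAHA (16.3% of 67 and 68 wells in the 2 batches) and in 8 of 94 with DMSO (8.51%). It was found in 36 of 36 Jurkat wells with PMA, 11 of 36 with SAHA (30.6%, interval 16.3 to 48.1%) and 5 of 30 with DMSO (16.7%, interval 5.64 to 34.7%). Thus nearly every well with PMA had a CD69 read, and most wells without PMA had none. The log2 change with PMA was 9.63 (SE 0.87, adjusted p = 0.00057) in J-Lat A2 cells and 5.44 (SE 0.72, adjusted p = 0.00484) in Jurkat cells. Each fold includes the batch term of the fit and so need not equal the ratio of the printed levels.

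With SAHA, CD69 rose in J-Lat A2 cells by a log2 change of 2.99 (SE 0.64, adjusted p = 0.0192). The 5 SAHA plates ran from 5.08 to 32.5 CPM and the 5 DMSO plates from 0 to 9.04 CPM, so the plates overlapped. This call was lost with no batch term (2.66, adjusted p = 0.0617) and without plate P2449 (adjusted p = 0.0889), P2769 (0.0505) or P2771 (0.0586), at log2 changes of 2.40 to 2.98 without a plate. In Jurkat cells CD69 was at a log2 change of 0.63 with SAHA (SE 0.71, adjusted p = 0.766), and the difference between the lines in the SAHA change was 2.36 (SE 0.96, adjusted p = 1). With DMSO alone CD69 was lower in J-Lat A2 cells than in Jurkat cells by a log2 change of -3.47 (SE 0.68, adjusted p = 0.0757), which was not called. It was called in 8 of 20 settings, among them the second batch by plate (-7.02, adjusted p = 0.0338), the fit without plate P2458 (-4.02, 0.0232) and the DESeq2 Wald test (-3.83, 1.916e-10). Leaving out the first or the second DMSO sum of J-Lat A2 cells gave -7.29 (adjusted p = 8.212e-06) and -2.45 (0.00773). Of the DMSO counts of CD69 in Jurkat cells 53.5% came from 1 well, and without the highest well of each group the change between lines was -2.79 (adjusted p = 0.165).

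Among wells that had a CD69 read, its median level was 580 CPM in J-Lat A2 cells with PMA, 71.9 CPM with SAHA and 67.6 CPM with DMSO. The Jurkat medians were 496 CPM with PMA, 57.9 CPM with SAHA and 41.02 CPM with DMSO. Both the share of wells and the level in a well that had a read were therefore higher with PMA. The wells with PMA still differed widely, since those of J-Lat A2 reached 7071 CPM and 7 of 79 had no read. After each well was thinned to 100000 counts, which left 77 of 79 J-Lat A2 wells with PMA, 91 of 94 with DMSO, fewer with SAHA and all Jurkat wells, the share with CD69 was 90.0% with PMA, 15.3% with SAHA and 6.08% with DMSO in J-Lat A2 cells. For Jurkat cells it was 97.9% with PMA, 28.5% with SAHA and 16.2% with DMSO.

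HIVmini, the feature for the construct that Jurkat cells do not carry, had a read in 4 of the kept Jurkat wells (3.92%, interval 1.08 to 9.74%). Shares of wells at or below that value are not read as expression or as a difference here. They are those of CD40LG and GPR183 in J-Lat A2 cells with SAHA or DMSO, IL2RA in J-Lat A2 cells with SAHA, CCR7 in J-Lat A2 cells with PMA, and GPR183 and CD4 in Jurkat cells with SAHA. Whether their reads came from other wells was not tested, and some of these wells held much: the 2 highest for CD40LG in J-Lat A2 cells with DMSO had 313.8 and 312.3 CPM. The median depth was 526565 counts in Jurkat wells with PMA, 529386 with SAHA and 499797 with DMSO, and 474569, 511883 and 546580 counts in J-Lat A2 wells with PMA, SAHA and DMSO. Reads carried no molecular identifier, so intervals cover counting error only.

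**Figure D2:**
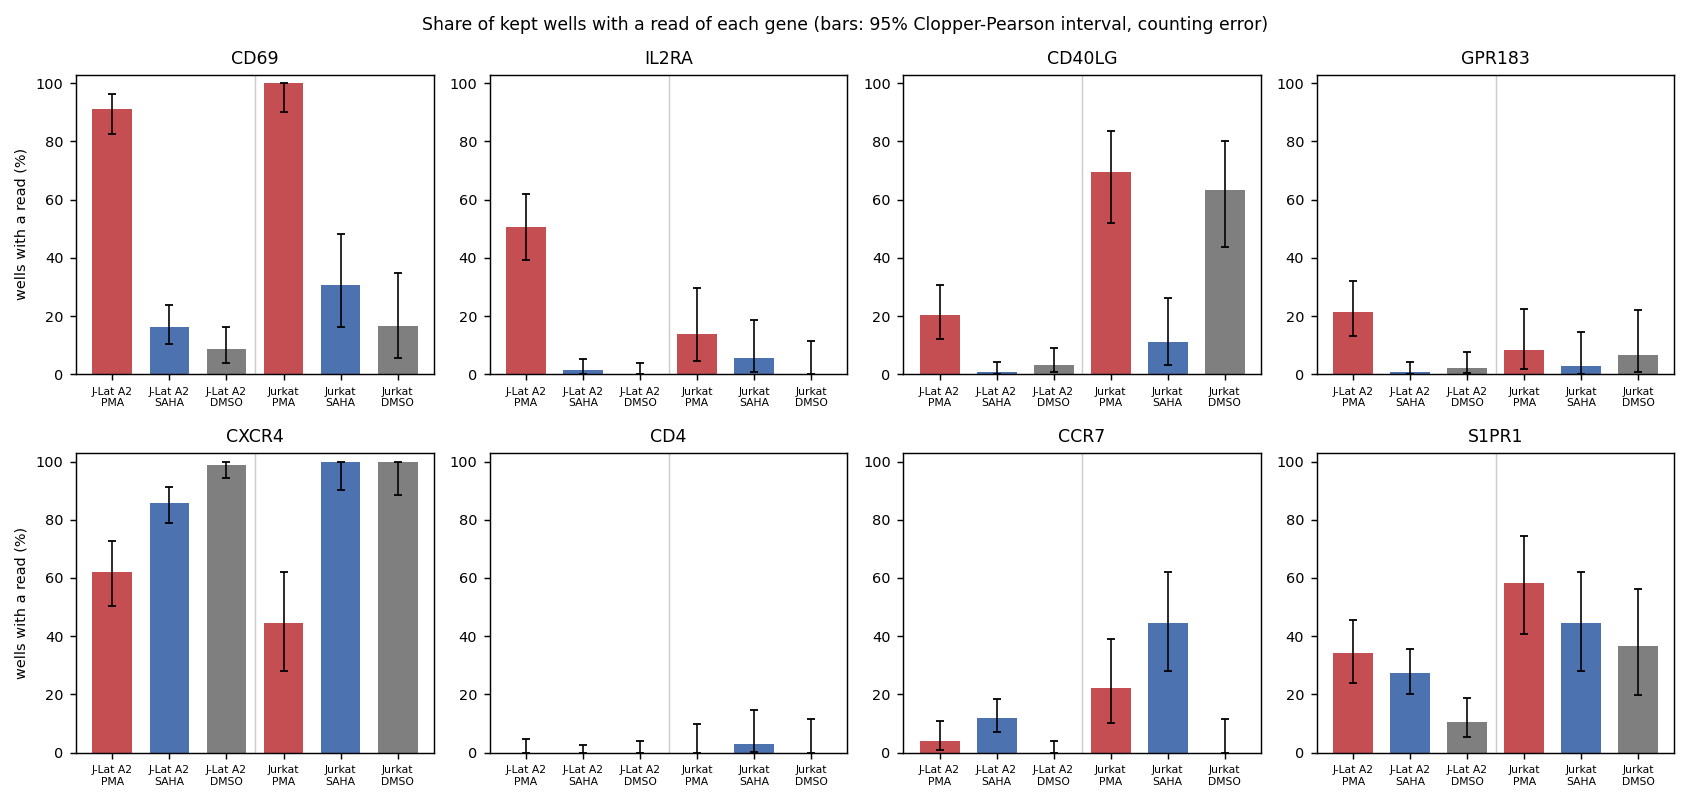
Share of the kept wells with at least 1 read of each gene, in percent, for J-Lat A2 cells (left of the grey line) and Jurkat cells with PMA, SAHA or DMSO. Error bars are 95% Clopper-Pearson intervals; CD69 was found in 91.1% and 100% of the wells with PMA, and CXCR4 in 62.03% and 44.4%.

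IL2RA, the alpha chain that gives the interleukin-2 receptor its high affinity, was read in PMA wells and almost nowhere else. The gene lies on the minus strand at chr10:6010689-6062370, where an antisense gene that is no row of the table, AL137186.1, overlaps it in exons, and reads of the 2 cannot be told apart without strand. Its level was 114.9 CPM in J-Lat A2 cells with PMA, 0 and 2.43 CPM in the 2 batches with SAHA, and 0 in both batches with DMSO. Jurkat cells had 29.4 CPM with PMA, 1.34 CPM with SAHA and none in both batches with DMSO. A read was found in 40 of 79 J-Lat A2 wells with PMA (50.6%, interval 39.1 to 62.1%) and in 5 of 36 Jurkat wells with PMA (13.9%, interval 4.67 to 29.5%). None of 94 J-Lat A2 wells with DMSO had one, which allows a share of up to 3.19% (3 wells of the total, not a Clopper-Pearson bound), and none of 30 Jurkat wells with DMSO, which allows up to 10.0%. Such a limit is on wells with a read, not on cells that express the gene. So CD69 was read in nearly every PMA well, whereas IL2RA was read in about as many J-Lat A2 wells as had no read and in few Jurkat wells. With both DMSO groups at 0, the difference between the lines in the PMA change has no defined size (edgeR adjusted p = 1).

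Set against a floor of 3 counts over the DMSO group, IL2RA was 1745-fold higher with PMA in J-Lat A2 cells (edgeR adjusted p = 0.00797). In Jurkat cells it was 131.7-fold higher (edgeR adjusted p = 0.0207). These folds hold for that floor only. Reads carried no molecular identifier, and 1 J-Lat A2 well with PMA held 434 counts of IL2RA, so a single well can far exceed the floor. IL2RA passed the filter through treated cells only, so its p-values and calls are descriptions. The PMA plates ran from 56.9 to 160.7 CPM in J-Lat A2 cells and from 10.0 to 49.5 CPM in Jurkat cells, and no plate with SAHA or DMSO exceeded 5.94 CPM. The call in Jurkat cells was lost without plate P2771 (edgeR adjusted p = 0.0723). Without the DMSO sum of the second batch the log2 changes were 5.84 in J-Lat A2 cells and 4.73 in Jurkat cells, and neither was called. IL2RA had no count in any sum of the first batch, so that fit cannot tell the PMA change from the batch shift. By the DESeq2 Wald test neither was called (adjusted p = 0.232 and 0.451). SAHA was also called to raise IL2RA in J-Lat A2 cells (22.1-fold over the same floor, edgeR adjusted p = 0.0247). That call rested on 85 counts in 2 wells, 71 of them in 1 well. The share of wells (1.48%) lay below that of HIVmini in Jurkat cells. Without the highest well of each group that call was lost (adjusted p = 0.143).

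The promoter of IL2RA is shown because the gene was called up with PMA and had no count with DMSO. The window from RefSeq (GRCh38.p14, 250 bases before to 50 after the start, minus strand, chr10:6062318-6062617) reads as follows, with a CACCC and an overlapping pair of matches to GGG and CC separated by 5 bases (a loose form of the NF-kB motif, 1 on each strand) in capitals.
IL2RA: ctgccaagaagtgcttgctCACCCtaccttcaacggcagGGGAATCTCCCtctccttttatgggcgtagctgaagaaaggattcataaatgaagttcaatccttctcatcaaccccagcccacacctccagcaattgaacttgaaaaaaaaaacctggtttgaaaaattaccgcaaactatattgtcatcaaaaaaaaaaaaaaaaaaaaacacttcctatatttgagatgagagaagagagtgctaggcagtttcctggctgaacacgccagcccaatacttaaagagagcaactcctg

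CD40LG, which T helper cells use to engage CD40 on B cells and antigen-presenting cells, was read in Jurkat wells under every agent and in few J-Lat A2 wells. The gene is on the plus strand at chrX:136648193-136660390. Its level was 41.1 CPM in J-Lat A2 cells with PMA, 0 and 0.14 CPM under SAHA, and 0.84 and 13.1 CPM under DMSO. Jurkat cells had 1051 CPM with PMA, 3.48 CPM under SAHA, and 345 and 113.7 CPM under DMSO. Each Jurkat group lay above the J-Lat A2 group with the same agent. A read was found in 16 of 79 J-Lat A2 wells with PMA (20.3%), 1 with SAHA (0.741%) and 3 of 94 with DMSO (3.19%). Of the Jurkat wells it was found in 25 of 36 wells with PMA (69.4%, interval 51.9 to 83.7%), 4 of 36 with SAHA (11.1%, interval 3.11 to 26.1%) and 19 of 30 with DMSO (63.3%, interval 43.9 to 80.1%). Jurkat cells thus held CD40LG RNA without a stimulus. The intervals of their shares with PMA and DMSO overlapped, while the median level in wells with a read was 1434 CPM with PMA and 183.6 CPM with DMSO.

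SAHA lowered CD40LG in Jurkat cells by a log2 change of -6.66 (SE 1.54, adjusted p = 0.0426). The 3 SAHA plates ran from 0.15 to 5.66 CPM and the 5 DMSO plates from 50.1 to 377 CPM, with no overlap. The call was lost without plate P2458 (adjusted p = 0.100), P2770 (0.0586) or P2771 (0.0820), at log2 changes of -7.22 to -6.52. In J-Lat A2 cells the log2 change with SAHA was -6.11 (SE 1.49, adjusted p = 0.0325), but 91.7% of the DMSO counts came from 1 well of plate P2769, and without that plate the change was -2.03 (adjusted p = 0.291). That call was also lost without the DMSO sum of the second batch (-2.54, adjusted p = 0.137), without the SAHA sum of the second batch (0.0673), and without plates P2458 (0.0992) and P2771 (0.0619).

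PMA was not called to change CD40LG in either line, at log2 changes of 2.46 in J-Lat A2 cells (SE 0.99, adjusted p = 0.338) and 1.58 in Jurkat cells (SE 1.35, adjusted p = 0.732). The 3 PMA plates of Jurkat cells ran from 512 to 1672 CPM, above all 5 DMSO plates (50.1 to 377 CPM), and those of J-Lat A2 from 30.5 to 66.8 CPM, against 0 to 35.3 CPM with DMSO. Without plate P2769, PMA was called to raise the gene by 7.09 in J-Lat A2 cells (adjusted p = 0.000735) and by 3.79 in Jurkat cells (0.0086). With the highest well of each group left out, a choice made after the data were seen, the rises were 6.58 (adjusted p = 0.00098) and 3.26 (0.00887). In Jurkat cells the direction turned when the DMSO sum of the second batch was left out (-2.36, adjusted p = 0.0366), since the batch shift then came from J-Lat A2 cells alone, in which 1 well of the second batch held most DMSO counts. Between the lines with DMSO, the log2 change was -5.57 (J-Lat A2 over Jurkat, SE 1.09, adjusted p = 0.0768), which was not called. Without plate P2769 it was -8.71 (adjusted p = 0.000139), and without the highest wells -8.39 (0.000158). The difference between the lines in the PMA change was 0.89 (SE 1.55, adjusted p = 1) and in the SAHA change 0.55 (SE 3.15, adjusted p = 1).

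GPR183, the receptor for oxysterols that places lymphocytes within lymphoid tissue, was read in a minority of J-Lat A2 wells with PMA and hardly elsewhere. It is on the minus strand at chr13:99294530-99307405, inside UBAC2 on the other strand, with no exon shared. Its level was 173.97 CPM in J-Lat A2 cells with PMA, 0 and 0.14 CPM under SAHA, and 0.80 and 2.32 CPM under DMSO. Jurkat cells had 8.99 CPM with PMA, 0.32 CPM under SAHA, and 0.42 and 0.58 CPM under DMSO. A read was found in 17 of 79 J-Lat A2 wells with PMA (21.5%, interval 13.1 to 32.2%), 1 with SAHA and 2 of 94 with DMSO. Of the Jurkat wells, 3 of 36 with PMA, 1 of 36 with SAHA and 2 of 30 with DMSO had one. The J-Lat A2 wells with PMA that had a read held a median of 537 CPM, and the lowest of them held 73.5 CPM.

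The log2 change with PMA was 6.22 in J-Lat A2 cells (SE 0.90, adjusted p = 0.00775), with PMA plates from 75.2 to 246 CPM and DMSO plates from 0 to 7.29 CPM. That call was lost without plate P2770 (5.49, adjusted p = 0.114) and without the DMSO sum of the second batch (6.19, adjusted p = 0.306). In Jurkat cells the log2 change was 3.60 (SE 0.90, adjusted p = 0.0781), and 65.5% of the PMA counts came from 1 well. The difference between the lines in the PMA change was 2.63 (SE 1.18, adjusted p = 1). SAHA was called to lower GPR183 in J-Lat A2 cells (-4.34, SE 0.81, adjusted p = 0.0100), on 5 counts in 1 well with SAHA and 66 counts in 2 of 94 wells with DMSO. This call was lost without the highest wells (adjusted p = 0.0708), without the DMSO sum of the second batch (0.0840) and without plates P2449 (0.0651), P2770 (0.0813) or P2771 (0.151). In Jurkat cells the SAHA change was -1.19 (SE 1.06, adjusted p = 0.677).

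The promoter of GPR183 (RefSeq, GRCh38.p14, minus strand, chr13:99307350-99307649) is shown beside that of IL2RA because both genes were low or at 0 with DMSO and were called up with PMA in J-Lat A2 cells. Capitals mark TATAAA and CACCC or their reverse complements.
GPR183: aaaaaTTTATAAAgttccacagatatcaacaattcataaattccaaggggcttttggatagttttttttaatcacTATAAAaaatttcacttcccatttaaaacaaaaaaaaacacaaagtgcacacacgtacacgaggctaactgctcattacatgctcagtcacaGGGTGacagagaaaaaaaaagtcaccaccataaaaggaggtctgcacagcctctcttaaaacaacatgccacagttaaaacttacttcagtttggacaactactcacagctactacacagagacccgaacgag

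CXCR4, the receptor for the chemokine CXCL12 and a coreceptor for HIV entry, was the only one of the 7 tested genes called lower with PMA, and it was called lower in both lines. The gene is on the minus strand at chr2:136114349-136118165. Its level was 133.4 CPM in J-Lat A2 cells with PMA, 546 and 644 CPM under SAHA, and 618 and 592 CPM under DMSO. Jurkat cells had 48.3 CPM with PMA, 742 CPM under SAHA, and 540 and 525 CPM under DMSO. All 6 PMA plates, from 29.7 to 191.8 CPM, lay below every SAHA and DMSO plate, the lowest of which was at 431 CPM. A read was found in 49 of 79 J-Lat A2 wells with PMA (62.03%, interval 50.4 to 72.7%), in 85.9% of those with SAHA (interval 78.9 to 91.3%) and in 93 of 94 with DMSO (98.9%). Of the Jurkat wells, 16 of 36 with PMA (44.4%, interval 27.9 to 61.9%), 36 of 36 with SAHA and 30 of 30 with DMSO had one. Wells that had a read held a median of 161.996 CPM with PMA, 538 CPM with SAHA and 580 CPM with DMSO in J-Lat A2 cells, and 88.7 CPM with PMA, 596 CPM with SAHA and 529 CPM with DMSO in Jurkat cells. The share of wells and the level in wells with a read were thus both lower with PMA.

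The log2 change of CXCR4 with PMA was -2.20 in J-Lat A2 cells (SE 0.22, adjusted p = 0.000908) and -3.48 in Jurkat cells (SE 0.23, adjusted p = 0.000207). Both calls held in 19 of 20 alternative settings and were lost when each well had equal weight (adjusted p = 0.333 and 0.122). The difference between the lines in this change was 1.28 (J-Lat A2 minus Jurkat, SE 0.27), with an unadjusted p of 0.000784 and an adjusted p of 0.818 in edgeR. With SAHA the log2 change was -0.03 in J-Lat A2 cells (SE 0.15, adjusted p = 0.973) and 0.46 in Jurkat cells (SE 0.20, adjusted p = 0.266). Between the lines with DMSO it was 0.18 (SE 0.15, adjusted p = 0.814). The share of J-Lat A2 wells with SAHA that had a CXCR4 read moved with depth: it was 96.6% after thinning to 100000 counts, which leaves out shallower wells, and 59.7% over all wells sorted, those left out for low totals included.

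The CXCR4 promoter window farthest upstream (RefSeq, GRCh38.p14, minus strand, chr2:136118100-136118399) is shown as that of the gene called down with PMA. Capitals mark GGGCGG and TATAAA or their reverse complements. CACCC also occurs here but is left in lower case, so it or its reverse complement is in every window shown.
CXCR4: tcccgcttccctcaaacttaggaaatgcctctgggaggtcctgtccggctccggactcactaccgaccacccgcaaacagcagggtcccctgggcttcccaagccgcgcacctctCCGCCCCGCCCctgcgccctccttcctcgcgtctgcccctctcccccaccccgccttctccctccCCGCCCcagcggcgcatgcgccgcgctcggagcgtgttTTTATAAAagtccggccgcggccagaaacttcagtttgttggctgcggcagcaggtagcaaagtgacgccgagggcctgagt
The 3 windows shown differ in composition, with 66.7% G or C and 27 CG pairs in CXCR4, 41.7% and 4 in IL2RA, and 36.7% and 4 in GPR183. The medians over 35116 promoters were 58.7% and 14. The 2 further windows of CXCR4 had 53.7% and 14, and 52% and 9, so the size of the difference depends on the start shown. TGANTCA (AP-1) and TGACGTCA (CRE), searched on both strands, were in none of the 6 windows found for 4 of the 8 genes (those shown, S1PR1 and 2 further starts of CXCR4), and they occur in 7.71% and 1.85% of all promoters. Of all promoters 44.95% hold GGGCGG, 59.9% hold CACCC, 11.53% hold TATAAA and 58.7% hold the loose NF-kB form, so a match to most of these is common.

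**Figure D3:**
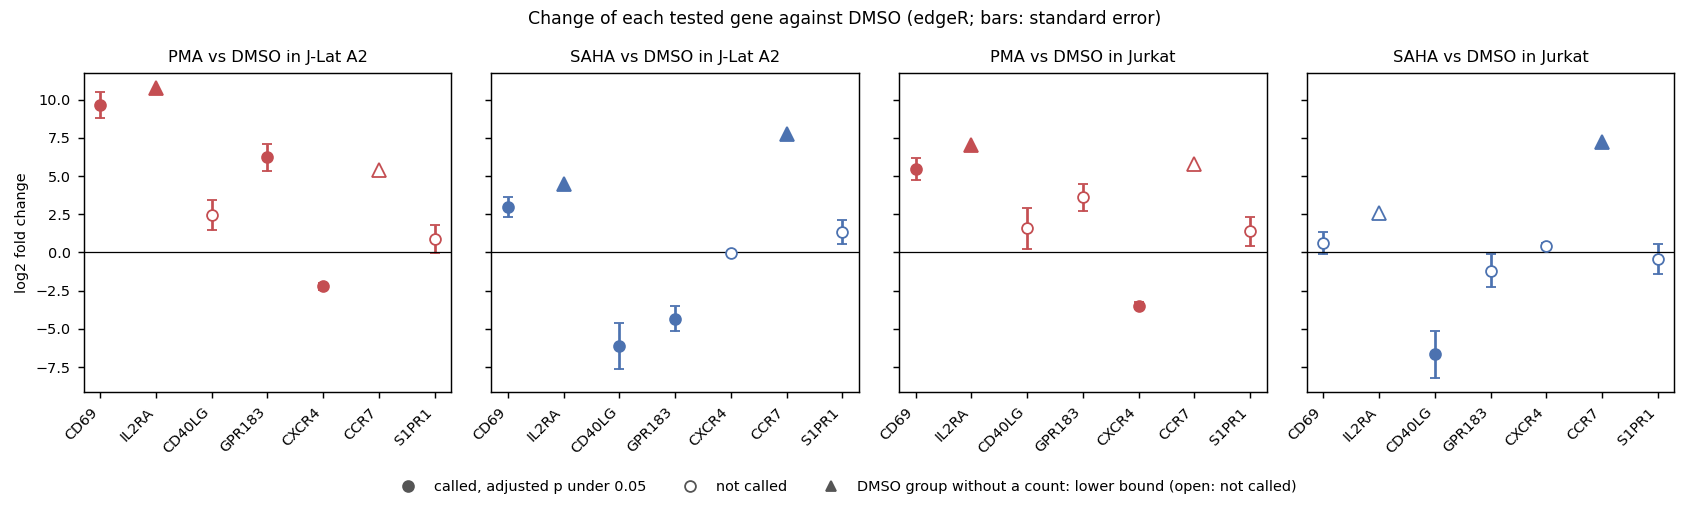
Log2 fold change of the 7 tested genes with PMA or SAHA against DMSO in each line, with its standard error (smaller than the point for CXCR4). Filled points were called in edgeR at an adjusted p under 0.05 and open points were not. Triangles, labelled lower bound, are folds over a floor of 3 counts where the DMSO group had no count. CXCR4 with PMA lies at -2.20 in J-Lat A2 cells and -3.48 in Jurkat cells.

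CCR7, the receptor for CCL19 and CCL21 that leads T cells into lymph nodes, was the gene that SAHA was called to raise in both lines. It is on the minus strand at chr17:40553769-40565472. Its level was 2.80 CPM in J-Lat A2 cells with PMA, 8.99 and 17.6 CPM with SAHA, and 0 in both batches with DMSO. Jurkat cells had 12.5 CPM with PMA, 32.7 CPM with SAHA and none in both batches with DMSO. Every SAHA plate had a CCR7 count (6.45 to 27.97 CPM on the 5 plates of J-Lat A2, 23.9 to 41.9 CPM on the 3 of Jurkat), and no DMSO plate had one. A read was found in 3 of 79 J-Lat A2 wells with PMA (3.80%), 16 with SAHA (11.9%, interval 6.93 to 18.5%) and 0 of 94 with DMSO, which by the same rule of 3 wells allows up to 3.19% with a read. Of the Jurkat wells, 8 of 36 with PMA (22.2%, interval 10.1 to 39.2%), 16 of 36 with SAHA (44.4%, interval 27.9 to 61.9%) and 0 of 30 with DMSO had one. CCR7 was therefore found in a minority of wells in both SAHA groups and in Jurkat cells with PMA. Its share in J-Lat A2 cells with PMA lay under that of HIVmini in Jurkat cells and is not read as expression. With PMA in J-Lat A2 cells the 3 wells held 99.2, 86.5 and 18.6 CPM.

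Against the same floor of 3 counts over the DMSO group, CCR7 stood 215-fold higher in J-Lat A2 cells with SAHA (edgeR adjusted p = 0.00677). In Jurkat cells with SAHA it stood 146.4-fold higher (edgeR adjusted p = 0.0222). These folds too hold for that floor only. CCR7 had no DMSO count and passed the filter through treated cells only, so its p-values and calls are descriptions. The call in J-Lat A2 cells was lost only with equal weight per well (adjusted p = 0.149) among 20 settings. That in Jurkat cells was also lost without the DMSO sum of the second batch (adjusted p = 0.0989) and without plates P2458 (0.0600), P2770 (0.0584) or P2771 (0.0597). With PMA the folds over that floor were 42.4 in J-Lat A2 cells (edgeR adjusted p = 0.0698) and 55.9 in Jurkat cells (0.0531), and neither was called. Between PMA and SAHA, CCR7 was at a log2 change of -2.62 in J-Lat A2 cells (SE 1.35, adjusted p = 0.452) and -1.39 in Jurkat cells (SE 1.31, adjusted p = 0.754). No single well carried the SAHA result, since the highest held 14.4% of the counts in J-Lat A2 cells and 15.4% in Jurkat cells.

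S1PR1, the sphingosine 1-phosphate receptor through which lymphocytes leave lymph nodes and a binding partner of CD69, was not called in any comparison. The gene is on the plus strand at chr1:101236865-101243713. Its level was 18.4 CPM in J-Lat A2 cells with PMA, 7.08 and 15.9 CPM under SAHA, and 1.42 and 12.6 CPM under DMSO. Jurkat cells had 27.7 CPM with PMA, 7.70 CPM under SAHA, and 1.89 and 11.45 CPM under DMSO. The plates of J-Lat A2 cells ran from 10.5 to 23.2 CPM with PMA, 3.63 to 27.4 CPM with SAHA and 0.31 to 22.95 CPM with DMSO, so all 3 overlapped. In Jurkat cells the PMA plates (20.2 to 36.8 CPM) lay above the SAHA plates (4.09 to 11.1 CPM), and the DMSO plates (0.41 to 23.01 CPM) overlapped with both. The log2 change with PMA was 0.91 in J-Lat A2 cells (SE 0.92, adjusted p = 0.825) and 1.401 in Jurkat cells (SE 0.95, adjusted p = 0.621), and with SAHA it was 1.36 (SE 0.79, adjusted p = 0.388) and -0.44 (SE 0.98, adjusted p = 0.933). A read was found in 34.2% of J-Lat A2 wells with PMA, 27.4% with SAHA and 10.6% with DMSO, and in 58.3% of Jurkat wells with PMA, 44.4% with SAHA and 36.7% with DMSO. Many of these wells held few counts. With at least 5 counts required, the shares were 25.3% with PMA, 15.6% with SAHA and 7.45% with DMSO in J-Lat A2 cells, and 38.9% with PMA, 22.2% with SAHA and 10.0% with DMSO in Jurkat cells.

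CD4, the coreceptor for MHC class II that gives CD4 T cells their name and the main receptor of HIV, was close to absent from both lines. It is on the plus strand at chr12:6786858-6820808. The only counts were 10 in 1 of 36 Jurkat wells with SAHA (0.53 CPM). In the other groups no well had a read, which by the rule of 3 wells allows shares with a read of up to 3.80%, 2.22% and 3.19% of J-Lat A2 wells with PMA, SAHA and DMSO and up to 8.33% and 10.0% of Jurkat wells with PMA and DMSO. CD4 RNA was thus not detectable at this depth in 5 of the 6 groups, while LCK, the kinase that binds the CD4 tail, was at 786 CPM in J-Lat A2 cells and 838 CPM in Jurkat cells with DMSO.

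The order of the groups differed from gene to gene. CD69 and IL2RA ran from J-Lat A2 with PMA to Jurkat with PMA and then to the other 4 groups, and the plates of neither PMA group overlapped with the next group in the order. GPR183 had the same first place without overlap, but the plates of Jurkat with PMA (0 to 25.5 CPM) overlapped with those of the groups below. CD40LG ran from Jurkat with PMA to Jurkat with DMSO without overlap of plates, and the neighbours below overlapped. CXCR4 had its lowest places in J-Lat A2 with PMA and, below it, Jurkat with PMA, both without overlap, while the plates of neighbours among the 4 other groups overlapped. CCR7 was highest in Jurkat with SAHA, whose plates (23.9 to 41.9 CPM) overlapped with those of J-Lat A2 with SAHA.

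PMA and SAHA were also compared directly. In J-Lat A2 cells PMA gave higher levels than SAHA of 4 of the 7 genes and a lower level of CXCR4, against 3.62% of all genes called. The log2 changes were 10.56 for GPR183 (SE 0.96, adjusted p = 0.000248), 8.57 for CD40LG (SE 1.55, adjusted p = 0.0144), 6.64 for CD69 (SE 0.76, adjusted p = 0.00105), 5.62 for IL2RA (SE 1.07, adjusted p = 0.0296) and -2.18 for CXCR4 (SE 0.21, adjusted p = 0.000403). The IL2RA call was lost without plates P2458 (edgeR adjusted p = 0.0709), P2769 (0.0636) or P2771 (0.134). It was also lost without the SAHA sum of the second batch (log2 change 14.14). As IL2RA had no count in the first batch, that fit cannot tell the change from the batch shift. In Jurkat cells 3 were called higher with PMA than with SAHA and CXCR4 lower, against 3.87% of all genes. There the log2 changes were 8.24 for CD40LG (SE 1.56, adjusted p = 0.0175), 4.81 for CD69 (SE 0.90, adjusted p = 0.0159), 4.78 for GPR183 (SE 1.01, adjusted p = 0.0291) and -3.94 for CXCR4 (SE 0.24, adjusted p = 5.04e-05). Without plate P2771, CD69 (adjusted p = 0.0610), CD40LG (0.0528) and GPR183 (0.196) were not called. CD40LG and GPR183 were not called without P2458 (0.0521 and 0.0624), nor GPR183 without P2770 (0.646). GPR183 had 6 counts in 1 of 36 Jurkat wells with SAHA, and its call was also lost in the edgeR fit by plate (adjusted p = 0.171).

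Between the lines with DMSO none of the 7 was called, against 0.398% of all genes, although 2 of them (CD69 and CD40LG) had an unadjusted p under 0.05 in edgeR and both were called by DESeq2. Tests of whether an effect differed between the lines called none of the 7 for SAHA, against 0.00738% of all genes (1 gene), and none for PMA, against 0.0221% (3 genes). In each of these, 2 of the 7 had an unadjusted p under 0.05, and DESeq2 called 0 for SAHA and 2 for PMA. When only plates of the second batch were fitted, each plate as a unit and plate as a term, the PMA changes of CD69 (13.22 and 5.45), IL2RA (13.62 and 10.997, on DMSO groups at 0) and CXCR4 (-2.08 and -3.41) were called in J-Lat A2 and Jurkat cells alike. The SAHA changes of CCR7 (10.75 and 11.27, likewise on DMSO groups at 0) and of CD40LG (-5.51 and -5.17) were also called there in both lines. For CD40LG in J-Lat A2 cells, 1 DMSO well held 254 of the 255 counts of that batch. Its shares of wells over both batches, with SAHA and DMSO, lay under that of HIVmini. CD69 with SAHA in J-Lat A2 cells was called too (6.59). That value and the 13.22 with PMA rest on 2 DMSO counts of CD69 in 1 of 35 wells. GPR183 with PMA in J-Lat A2 cells was not called in this fit (6.74, adjusted p = 0.0585). The labels do not say whether plates held separate cultures, so p-values of this fit measure only the spread between plates of 1 batch. The first batch held no PMA wells and no Jurkat wells with SAHA.

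**Figure D4:**
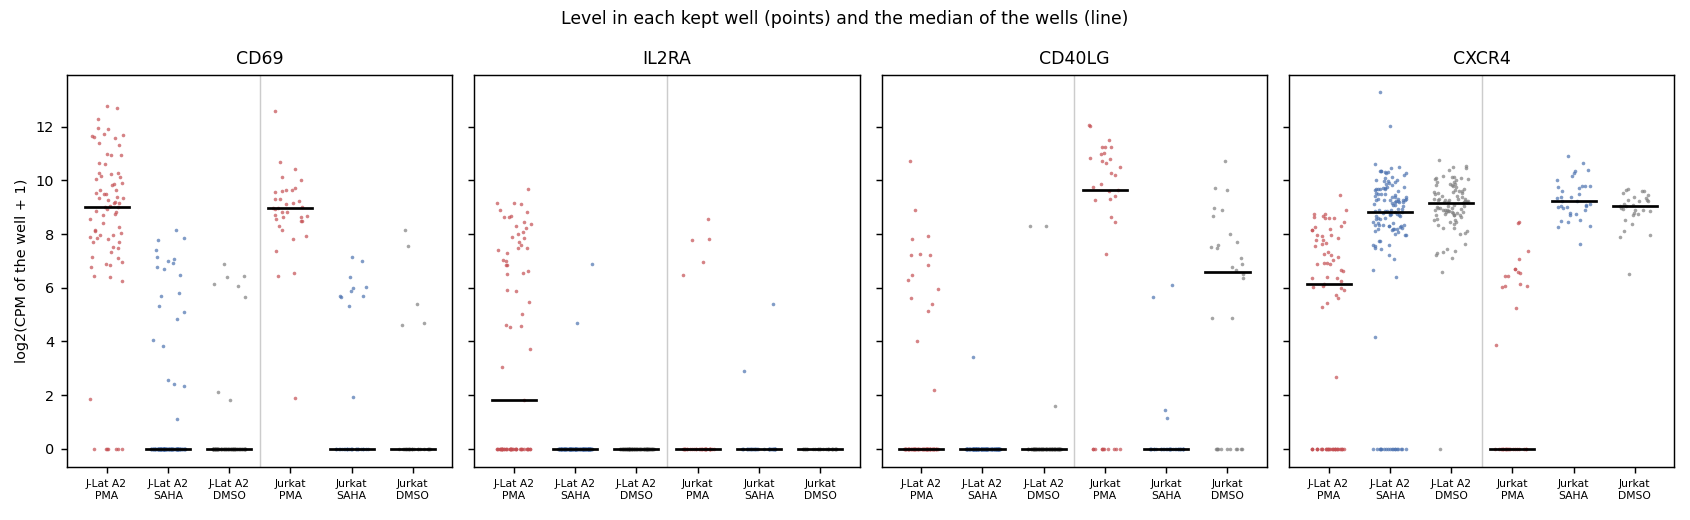
Level of CD69, IL2RA, CD40LG and CXCR4 in each kept well, as log2(CPM of the well + 1), for the 6 groups, with the median of the wells as a line. The median of CD69 was 518.2 CPM in J-Lat A2 wells with PMA, 496 CPM in Jurkat wells with PMA and 0 in the other 4 groups, and that of CXCR4 was 69.4 CPM and 0 with PMA.

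The 3 activation genes and GPR183, chosen after their values were seen, were counted well by well. Of CD69, IL2RA, CD40LG and GPR183, J-Lat A2 wells with PMA had a read of none in 2 wells, of 1 in 27, of 2 in 33, of 3 in 16 and of all 4 in 1. Of the J-Lat A2 wells with SAHA 80.7% had none and 19.3% had 1, and with DMSO 86.2% had none and 13.8% had 1. Jurkat wells with PMA had 1 in 8 wells, 2 in 23 and 3 in 5, those with SAHA none in 18 and 1 in 18, and those with DMSO none in 9, 1 in 17, 2 in 3 and 3 in 1. Wells with 2 or more of the 4 genes were thus absent from both SAHA groups and from J-Lat A2 cells with DMSO. In each of these groups IL2RA, CD40LG and GPR183 were read in at most 4 wells. Such low shares leave little room for wells with 2 genes, so the absence does not show whether the genes go together.

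Pairs of genes were also counted within wells. In J-Lat A2 cells with PMA, IL2RA was read in 36 of 72 wells with CD69 and in 4 of 7 without it. GPR183 was read in 12 of 40 wells with IL2RA and in 5 of 39 without it, and CD40LG in 8 of 40 and 8 of 39. CXCR4 was read in 44 of 72 wells with CD69 and in 5 of 7 without it, and 28 of the 30 wells without CXCR4 had CD69. In Jurkat cells with PMA every well had CD69, and 12 of 25 wells with CD40LG and 4 of 11 without it had CXCR4. These are cells of the same sums and are given without a test.

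**Figure D5:**
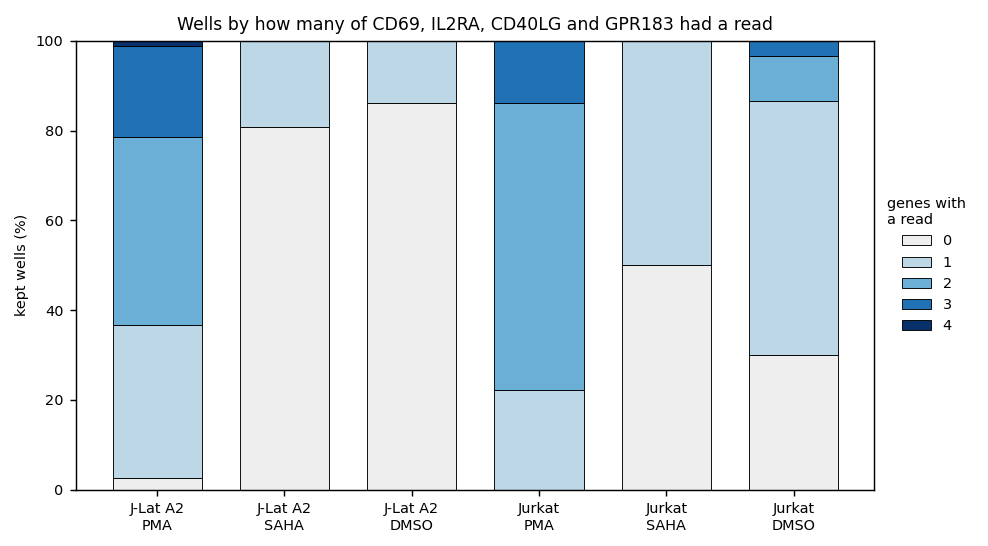
Share of the kept wells of each group, in percent, by how many of CD69, IL2RA, CD40LG and GPR183 had a read. With PMA 2 of 79 J-Lat A2 wells and none of 36 Jurkat wells lacked all 4, whereas 80.7% of J-Lat A2 wells with SAHA and 86.2% with DMSO did.

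The construct gave a second way to divide the J-Lat A2 wells. With PMA, CD69 was read in 47 of 49 wells with HIVmini over 100 CPM (median 665 CPM) and in 19 of 24 wells without an HIVmini read (median 230 CPM), and IL2RA in 23 of 49 and 13 of 24. CXCR4 was read in 26 of 49 and 18 of 24 of these wells, whose median depths were 474990 and 420543 counts. With SAHA, CCR7 was read in 6 of 85 wells with HIVmini over 100 CPM and in 7 of 37 without, and CD69 in 13 of 85 and 7 of 37. A part of depth in these shares was not tested.

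Other genes of these pathways were read from lists of related genes. Over all tested genes 1.98% were called with PMA and 8.43% with SAHA in J-Lat A2 cells, and 2.27% with PMA and 4.22% with SAHA in Jurkat cells. Of 38 tested activation and costimulation genes of the surface, PMA raised 5 and lowered 0 in J-Lat A2 cells and raised 5 and lowered 1 in Jurkat cells, with median log2 changes of 1.10 and 2.53, against 0.04 and 0.07 over all genes. CD82, a tetraspanin, stood at 1663 CPM with PMA and 96.5 ± 0.98 CPM with DMSO (SD, n = 2) in J-Lat A2 cells, a log2 change of 4.22 (SE 0.30). CD28, the costimulatory receptor, changed by 2.39 with PMA (SE 0.32) and by -1.23 with SAHA (SE 0.26) in J-Lat A2 cells, and by 2.59 (SE 0.33) and -1.81 (SE 0.36) in Jurkat cells, all called in edgeR. Of the same 38, SAHA was called to raise 1 (BTLA, in 2 wells, a gene at 0 with DMSO) and lowered 4 in J-Lat A2 cells and lowered 2 in Jurkat cells. Of 16 tested interleukin-2 and common gamma chain receptor genes, PMA raised 1 in J-Lat A2 cells, STAT5A, and 0 in Jurkat cells, and SAHA lowered 3 and 2. These include IL2RG, the shared gamma chain with which IL2RA pairs, at -1.17 (SE 0.17) in J-Lat A2 cells and -0.99 (SE 0.22) in Jurkat cells.

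Of 32 other tested trafficking and adhesion genes, PMA raised 2 and lowered 1 in J-Lat A2 cells and raised 1 in Jurkat cells, and SAHA lowered 3 and 4 and raised none; the SAHA share in J-Lat A2 cells is near that of all genes. SELPLG, the selectin ligand, fell with SAHA in both lines (-3.30, SE 0.29, and -3.49, SE 0.41), where CCR7 rose. Of 10 tested ligand and ligand enzyme genes, MIF, a cytokine that binds CXCR4, was the only one called and was lower in all 4 comparisons (-1.42 to -1.13). Of 20 tested genes of receptor coupling, CORO1A was called up with PMA (1.15 and 1.26 in J-Lat A2 and Jurkat cells) and down with SAHA (-1.41 and -1.13), and DOCK2 down with SAHA (-1.19 and -1.56). Of 17 tested regulators, LEF1 and TOX were called up with PMA in both lines, and SAHA lowered 2 in J-Lat A2 cells and raised 1, LEF1, in Jurkat cells. With SAHA in J-Lat A2 cells 1 of 10 ligand genes, 2 of 20 coupling genes and 2 of 17 regulators were called. These shares are near the 8.43% of all genes. With SAHA in Jurkat cells 1 of 17 regulators and 2 of 38 activation genes were called, near the 4.22% of all genes. Of the 6 genes of the coreceptor complex, PTPRC rose with PMA in both lines (1.82 and 2.01) and LCK fell with SAHA (-1.66 and -1.58), as did PTPRC with SAHA in J-Lat A2 cells (-1.26).

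As a description over the 9 sums and 7472 genes of at least 20 CPM in a sum, the genes whose level was most alike were ranked by Pearson's r of log2(CPM + 1). EGR2 was nearest to IL2RA (r = 0.998), MYH9 to GPR183 (0.983), UQCC3 to CXCR4 (0.981), TBPL1 to CCR7 (0.977), ZNF226 to CD69 (0.970) and PRKRIP1 to CD40LG (0.943). The sums share batches, and IL2RA was at or under 2.43 CPM in all but the 2 PMA sums.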

How the data were processed

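The members and gene lists were chosen with earlier results of these data known. Values deposited by the authors were expected counts for each gene in each well, from full-length cDNA without molecular identifiers and not divided by depth; the authors' tools, per the submitters' processing notes, include Salmon 1.5.1, alevin and GRCh38.p13, while annotation and strand setting were not given in those sources. Plates P2449 and P2458 were taken as the first batch and P2769, P2770 and P2771 as the second, from the stated numbers of plates per batch. Wells with at least 1/10 of their plate's median total and at least 500 genes were kept (410 of 480); whether a well held 1 cell was not checked, and no doublet caller was run. Counts were summed per group and batch (9 sums) and rounded, so the replicate is the batch; the labels do not say whether batches were separate cultures, so p-values measure only the spread between these sums, which may be technical. Groups with 1 sum were assumed to vary like the others. R 4.3.3 and edgeR 4.0.16 were used: TMM, filterByExpr (13558 genes), quasi-likelihood F test, two-sided, group and batch as terms (2 residual and 7.75 prior degrees of freedom), Benjamini-Hochberg adjustment over all genes, tested on simulated data. limma 3.58.1 and DESeq2 1.42.0 served alternatives. Lists name up to 4 called genes of the largest change with at least 20 CPM in a sum. Intervals are 95% Clopper-Pearson (scipy 1.17.1). Results on a few genes of the lists and rankings are not reported here.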

Additional observations from a re-analysis of the deposited data

Results flagged for a closer look

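Over the 17 pairs of gene and group measured on 5 plates, 1 plate stood apart from the other plates of its group in 6. Chance gives about 1 in 20 for continuous values, a rate that does not hold for genes at 0 on most plates, where any plate with a count stands apart. In J-Lat A2 cells with SAHA, IL2RA was at 5.94 CPM on plate P2770 (others 0 to 1.18), CD40LG at 0.418 CPM on P2770 and GPR183 at 0.423 CPM on P2771 (others 0), each from 1 well. In J-Lat A2 cells with DMSO, CD40LG was at 35.3 CPM on P2769 (others 0 to 3.49) and GPR183 at 7.29 CPM on P2771 (others 0 to 1.09), each from 1 well. In Jurkat cells with DMSO, S1PR1 was at 23.01 CPM on P2770, with reads in 3 of 6 wells (others 0.41 to 6.22).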

How the results depend on the processing

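The labels give no replicate numbers, but groups shared plates, so the fits by plate keep plate as a block. Over 20 alternative settings the count of members called was over 1.5 times higher in 24 and lower in 22 of 180 values, and 776 of 940 log2 changes kept direction and side of the threshold (55 gained the call, 76 lost it, 33 turned). With no batch term the members called were 3 for SAHA in J-Lat A2 cells, 5 for PMA in Jurkat cells and 1 between lines with DMSO. Fitted by plate, over both batches or within the second, they were 3 for SAHA in J-Lat A2 cells and 1 between lines. With equal weight per well they were 0 in both SAHA, both PMA and both PMA against SAHA comparisons, where 0 of 13558 genes were called in any comparison (1210 to 2618 at an unadjusted p under 0.05 in these 6; edgeR and DESeq2 on sums made calls). With DESeq2 they were 2 between lines and 2 for the difference in PMA effect. Without the highest well of each group they were 3 for SAHA in J-Lat A2 cells, 5 for PMA in Jurkat cells and 1 between lines. Leaving out 1 sum or plate gave 1 to 5 for SAHA and 3 to 6 for PMA in J-Lat A2 cells, 0 to 2 for SAHA and 2 to 6 for PMA in Jurkat cells, 4 to 5 and 1 to 5 for PMA against SAHA in J-Lat A2 and Jurkat cells, 0 to 2 between lines, and 0 to 1 for each difference in effect. Every reversed change had not been called; 1 reversed value was itself called (CD40LG with PMA in Jurkat cells, -2.36), where leaving out 1 sum or plate gave -2.36 to 3.79. GPR183 in Jurkat cells ran from -5.60 to 0.065 with SAHA and from -0.64 to 4.88 with PMA, and between lines from -1.11 to 2.95 (-0.053 with equal weight). CD69 with SAHA in Jurkat cells was at -0.057 with no batch term. CXCR4 with SAHA in J-Lat A2 cells ran from -0.24 to 0.13, and was at 0.018 by plate and 0.17 within the second batch. S1PR1 with SAHA ran from -0.0025 to 2.43 in J-Lat A2 cells and from -1.03 to 0.84 in Jurkat cells, where it was at 0.19 with no batch term, 0.22 by plate, 0.18 within the second batch and 0.019 with equal weight. S1PR1 with PMA against SAHA in J-Lat A2 cells ran from -1.51 to 0.33, and was at 0.68, 0.15 and 0.29 with no batch term, within the second batch and with equal weight. S1PR1 between lines ran from -0.89 to 0.46, and was at 0.043 with no batch term, 0.38 by plate, 0.53 within the second batch and 0.014 without the highest wells. The causes were not tested. Shares of wells up to 3.92% are not read as expression, and 3 of 6 groups have 1 sum.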
